A study of Mus musculus with 2 samples.

Results

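The naive pluripotency transcription factors Tbx3, Tfcp2l1, Klf2, Klf4, Klf5, Esrrb, Prdm14, Nr5a2 and Nr0b1, together with Tcl1, a kinase coactivator of the same network, were followed in mouse embryonic stem cells (ESCs) labelled as overexpressing HDAC6, a mainly cytoplasmic deacetylase of tubulin and other proteins. Members were chosen by gene name, and every probe of each was taken, giving 12 probes of 10 genes out of 38393 tested probes and 16071 named genes. The HDAC6 overexpression cells (OE) and the wild-type cells (WT) were both B6C3F1 ESCs of the same passage, grown in serum and LIF on mitomycin C-treated mouse embryonic fibroblasts. Total RNA of both was hybridised together on 2 Agilent arrays, with OE labelled with Cy5 and WT with Cy3 on each. The dyes were not swapped, so an effect of the dye and of the overexpression cannot be told apart. How HDAC6 was raised, and whether the line is 1 clone, is not given in the labels. The arrays are labelled biological replicates, but whether they came from separate cultures is not settled there. The limma p-values therefore measure only spread between the 2 arrays, which may be technical. That spread is taken from the probe itself (1 residual degree of freedom) and from all tested probes (4.75 prior degrees of freedom).

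Naive pluripotency is the state of the preimplantation epiblast that mouse ESCs keep in culture. In textbook accounts it is held by a redundant circuit around Oct4, Sox2 and Nanog, into which LIF acts through STAT3 on Tfcp2l1, Klf4 and, with PI3K and AKT, on Tbx3, while GSK3 inhibition relieves Esrrb of repression by Tcf7l1. Nr5a2 and Esrrb are nuclear receptors that bind DNA in the circuit, Nr0b1 is an atypical receptor that acts as a cofactor, Prdm14 represses FGF signalling and DNA methyltransferase genes, and Tcl1 binds and activates AKT.

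The promoters of members that moved to different degrees are shown to let their sequence be compared. The promoter sequences at hand, from RefSeq (GRCm38.p6), covered 9 start sites of 7 member genes. None was at hand for Tbx3, Klf5 or Prdm14, so the most raised member, Tbx3, is not compared. The 250 bases before the start are printed for 5 genes, 5′ to 3′ on the gene's strand. Capitals mark matches, on either strand, to a KLF element (GGGNGTGG), a GC box (GGGCGG), a STAT element (TTCNNNGAA) or a TATA box (TATAAA).
Tfcp2l1 (chr1:118627695-118627944, plus strand): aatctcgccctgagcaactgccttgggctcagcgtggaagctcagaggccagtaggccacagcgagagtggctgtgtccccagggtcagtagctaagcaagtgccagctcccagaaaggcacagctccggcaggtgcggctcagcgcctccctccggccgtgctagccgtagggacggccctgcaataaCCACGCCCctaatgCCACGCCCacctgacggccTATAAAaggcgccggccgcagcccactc
Klf4 (chr4:55532476-55532725, minus strand): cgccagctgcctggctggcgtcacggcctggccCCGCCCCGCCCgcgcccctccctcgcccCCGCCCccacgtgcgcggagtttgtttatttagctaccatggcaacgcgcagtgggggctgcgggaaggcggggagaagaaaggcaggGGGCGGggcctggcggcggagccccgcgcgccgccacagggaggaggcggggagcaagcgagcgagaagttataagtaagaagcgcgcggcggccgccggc
Klf2 (chr8:72318812-72319061, plus strand): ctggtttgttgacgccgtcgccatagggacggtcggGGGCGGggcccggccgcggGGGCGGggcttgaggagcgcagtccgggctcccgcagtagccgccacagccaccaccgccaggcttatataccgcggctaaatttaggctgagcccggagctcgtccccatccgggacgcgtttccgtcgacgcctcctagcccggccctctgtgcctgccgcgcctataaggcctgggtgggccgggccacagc
Esrrb (chr12:86360867-86361116, plus strand): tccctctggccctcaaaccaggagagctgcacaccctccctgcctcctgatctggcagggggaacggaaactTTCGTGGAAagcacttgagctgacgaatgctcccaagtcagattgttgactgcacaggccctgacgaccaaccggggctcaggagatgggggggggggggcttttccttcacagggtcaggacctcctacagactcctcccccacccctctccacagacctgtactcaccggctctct
Tcl1 (chr12:105222738-105222987, minus strand): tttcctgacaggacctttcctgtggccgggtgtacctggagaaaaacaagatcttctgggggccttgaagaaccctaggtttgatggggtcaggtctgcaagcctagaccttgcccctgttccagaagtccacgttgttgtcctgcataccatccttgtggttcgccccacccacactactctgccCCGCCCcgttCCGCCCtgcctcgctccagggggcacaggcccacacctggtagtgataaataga

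The Tfcp2l1 promoter held 2 KLF elements, at 61 and 47 bases before the start, and a TATA box at 28. Among promoters not printed, Nr5a2 held a KLF element at 157 bases before a start and a TATA box at 181 before another. Nr0b1 held a TATA box at 32. Klf4 and Klf2 had GC boxes and no KLF, STAT or TATA match, with 4 in Klf4, of which a pair overlap by 1 base, and 2 in Klf2. Both were GC-rich, at 74.0% for Klf4 and 71.2% for Klf2, against a median of 52.4% over 32851 promoters. Esrrb, at the first of its starts, had the STAT element TTCGTGGAA at 178 bases. Tcl1 had 2 GC boxes, at 64 and 54 bases. No match of one motif overlapped a match of another. Of all promoters, 15.9% held the KLF element, 32.7% the GC box, 7.02% the STAT element and 12.4% the TATA box, so a match is a description and no site. The nuclear receptor element AAGGTCA, the octamer ATTTGCAT, the SOX element ACAATGG, the TCF element CTTTGAT and the T-box element AGGTGTGA were in none of the 9 member promoters, against 4.08%, 1.6%, 3.02%, 3.21% and 1.12% of all, on either strand, which says only that these letters are not in this window.

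The measure throughout is log2 of the processed OE signal over the processed WT signal, a difference within an array; levels of different probes are not compared. On each array 68.1% to 68.8% of the 55681 probes were well above background in each channel taken alone, and no spot was saturated. Across tested probes, which are not independent of each other, the ratios of replicate 1 and replicate 2 had r = 0.902 and rho = 0.863. With limma and an adjusted p of 0.05, 23.1% of probes were called higher and 23.0% lower in OE. By size alone, 2.73% of probes were 2-fold or more higher on each array and 3.55% were lower. Of the brightest probes of named genes, 19.4% were called higher and 27.7% lower.

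Hdac6 itself had processed signals of 18275 and 17344 in OE, against 16389 and 17806 in WT, by its first probe. Its mean log2 ratio was 0.06 ± 0.14 (SD, n = 2) with a limma adjusted p of 0.67. The second probe gave 0.089 ± 0.13 and an adjusted p of 0.52. Signals of OE and WT overlapped at both probes, with 17452 and 16826 in OE against 15372 and 16891 in WT at the second. With median centring in place of the dye normalization, the probes were called higher, at log2 ratios of 0.52 and 0.50. The files do not show whether these probes can detect the introduced HDAC6, so they do not check the label.

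All 10 members passed the filter and had signal well above background in both channels of both arrays. Of these, 8 were called higher in OE, 0 lower and 2 were not called. Tbx3, Tfcp2l1 and Tcl1, 3 in number, were 2-fold or more higher on both arrays. Tested against a 1.5-fold minimum, limma called these 3 alone, with Klf4 at an adjusted p of 0.054 and Esrrb, Nr5a2, Nr0b1 and Klf5 between 0.71 and 1. The median log2 ratio of all 10 members was 0.72, against 0.019 for all tested probes and -0.06 for the brightest probes of named genes. The ratio was above the median of the 500 probes of nearest brightness for 9 of the 10 on both arrays. In bulk RNA, fewer cells of a type and less RNA per cell cannot be told apart.

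**Figure D1:**
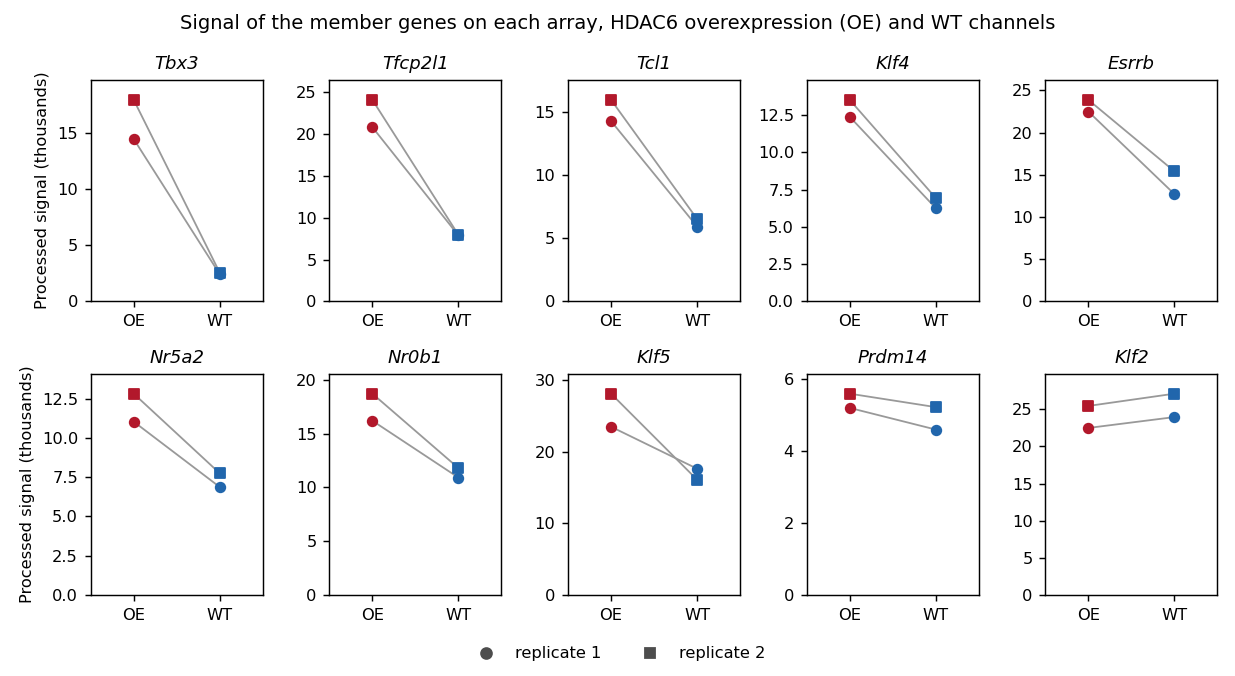
Processed signal (linear axis from 0, scaled as labelled) of each member's brightest probe, with OE at the left and WT at the right of every panel and a line joining the channels of 1 array (circle replicate 1, square replicate 2). OE lies above WT on both arrays for 9 members, and WT above OE on both arrays for Klf2.

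**Figure D2:**
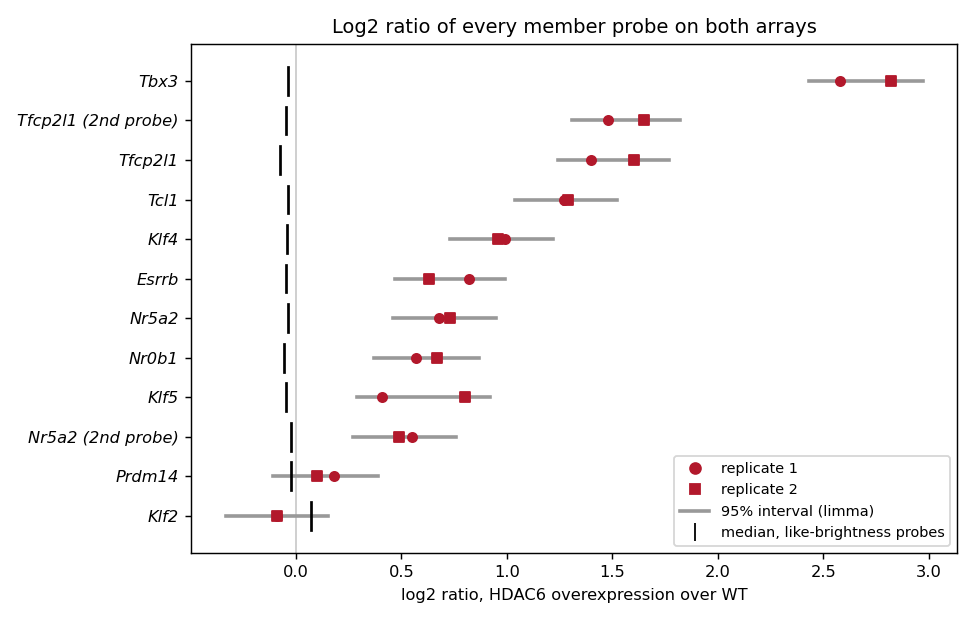
log2 ratio (OE over WT) of all 12 member probes, with both arrays as points, the limma 95% interval as a bar and the median of the 500 probes of like brightness as a tick. Tbx3 stands highest at 2.58 and 2.82, and the intervals of Prdm14 and Klf2 span 0.

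Among the LIF-linked factors, Tbx3, a T-box repressor and activator that sustains self-renewal, had signals of 14478 and 17973 in OE, against 2414 and 2550 in WT. The lowest OE signal was well above the highest WT signal. The ratio was 6.5-fold (95% interval 5.39 to 7.85), or 2.70 ± 0.16 on the log2 scale (SD, n = 2), at a limma adjusted p of 9.9e-05, higher than all 500 probes of nearest brightness.

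Tfcp2l1, the CP2-family factor that can carry LIF and STAT3 self-renewal, had signals of 20837 and 24107 in OE, against 7882 and 7951 in WT. Its log2 ratio was 1.5 ± 0.14 (SD, n = 2), or 2.83-fold, with a limma adjusted p of 5.1e-04. A separate probe of the gene gave 19283 and 22665 in OE, against 6895 and 7240 in WT, and 2.96-fold at an adjusted p of 4.2e-04. At both probes, either OE signal was above either WT signal.

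The Krüppel-like factors Klf2, Klf4 and Klf5 can replace each other in ESCs, but their values differed here. Klf4, the STAT3-responsive member, had signals of 12398 and 13532 in OE, against 6257 and 6941 in WT. It was 1.97-fold higher (95% interval 1.66 to 2.33) at a limma adjusted p of 0.0013. Klf5 had 23506 and 28124 in OE, against 17647 and 16107 in WT. It was 1.53-fold higher (1.23 to 1.9) at an adjusted p of 0.013, though the log2 ratios of 0.41 and 0.80 differed between arrays more than those of any other member. Median centring put Klf5 at 1.24. The authors' deposited scanner p for Klf5 was 0.046 on replicate 1 and 2.1e-04 on replicate 2.

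Klf2, whose product is a target of ERK-driven degradation, had 22492 and 25454 in OE, against 23955 and 27104 in WT. WT was above OE on each array, but the channels overlapped across arrays. The log2 ratio was -0.091 ± 0.00025 (SD, n = 2), with a 95% interval of 0.793-fold to 1.11-fold and a limma adjusted p of 0.48. The upper end of that interval lies below the lower end for Klf4. The direction depended on the setting, with 0.046 under loess, not called, and 0.65 under median centring, called higher at an adjusted p of 5.5e-05. Klf4 exceeded Klf2 by 1.08 and 1.05 log2 units on the arrays, a 2.09-fold mean difference in their ratios, and it exceeded Klf5 by 0.57 and 0.16 units. Under median centring the difference from Klf5 turned, with Klf4 at 1.11 and Klf5 at 1.24. The difference from Klf2, at 0.65 in that setting, was smaller.

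Esrrb, an orphan receptor that can stand in for Nanog, had signals of 22496 and 23885 in OE, against 12711 and 15411 in WT. It was 1.66-fold higher, at 0.73 ± 0.14 on the log2 scale (SD, n = 2) and a limma adjusted p of 0.0039, and at 1.23 under median centring. Nr5a2 (LRH-1), which can maintain Pou5f1 expression, had 11028 and 12809 in OE, against 6872 and 7744 in WT. It was 1.63-fold higher at an adjusted p of 0.0035. Its dimmer probe, with 3149 and 3695 in OE and 2157 and 2624 in WT, gave 1.43-fold and 0.0093. Esrrb and Nr5a2 were not separated in size, since the difference of their log2 ratios was 0.14 on one array and -0.094 on the other.

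Nr0b1 (DAX1), the receptor-like cofactor that lacks a classical DNA-binding domain, had 16188 and 18699 in OE, against 10908 and 11790 in WT. It was 1.53-fold higher, at 0.62 ± 0.068 on the log2 scale (SD, n = 2) and a limma adjusted p of 0.0055. Its probe is printed 10 times on the array, and the copies show the technical spread. On replicate 1 the 9 copies used ranged from 15843 to 16631 in OE, against 10411 to 11363 in WT, with log2 ratios of 0.51 to 0.61. On replicate 2 the 7 used ranged from 18478 to 19122 in OE, against 11416 to 12230 in WT, with 0.61 to 0.72. The copies of OE and WT did not overlap on either array. The SD over copies was 0.033 and 0.041, below the SD between the arrays.

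Prdm14, the PR-domain factor that recruits Polycomb and CBFA2T2, had 5206 and 5602 in OE, against 4604 and 5228 in WT. OE was above WT on each array but overlapped WT across them. The log2 ratio was 0.14 ± 0.055 (SD, n = 2), a 95% interval of 0.928-fold to 1.31-fold and an adjusted p of 0.29 in limma. It lay above 66.8% of the probes of like brightness.

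Tcl1, the AKT coactivator, had 14262 and 15942 in OE, against 5917 and 6516 in WT. It was 2.43-fold higher (95% interval 2.05 to 2.88), at 1.28 ± 0.015 on the log2 scale (SD, n = 2) and a limma adjusted p of 6.3e-04. The Tcl1b genes beside it on the chromosome are related copies, and whether their probes tell them apart was not tested. Tcl1b1 had 97.9 and 122 in OE, against 12.2 and 27.6 in WT, where it was not well above background, and was at least 2.62-fold higher. Tcl1b4 had 54.0 and 74.9 in OE, against 10.03 and 18.4 in WT, also not well above background, and was at least 1.53-fold higher, while its other 2 probes were below background in both channels. These bounds set the OE mean over the lowest signal counted as well above background, or the probe's own if higher. They hold for the processed signals only. Over the settings the lowest log2 ratio was 0.78 for Tcl1b1 and 0.88 for Tcl1b4, so 2.62-fold is no minimum across settings. Both genes drop out where WT must be above background too. The mean log2 ratio of Tcl1b4, 2.23, lay above only 77.8% of the probes of like brightness. The median of those probes was itself 0.72, so higher ratios were common among probes this dim. The ratio of Tcl1b1, 2.57, lay above 98.6% of its own such probes, whose median was 0.19. Tcl1b2, Tcl1b3 and Tcl1b5 were not measured. Akt1, Akt2, Pik3ca and Mtcp1, from the same list, were not called.

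In order of mean log2 ratio the members ran Tbx3, Tfcp2l1, Tcl1, Klf4, Esrrb, Nr5a2, Nr0b1, Klf5, Prdm14 and Klf2 on the processed signals. Under median centring the order below Tcl1 changed, with Klf5 at 1.24 and Esrrb at 1.23 above Klf4 at 1.11, Nr0b1 at 0.93 above Nr5a2 at 0.83, and Klf2 at 0.65 above Prdm14 at 0.13. Values of neighbours overlapped between arrays for Esrrb with Nr5a2 and for Nr0b1 with Klf5. The gap from Tbx3 to Tfcp2l1 was 1.18 and 1.22 units on the arrays. Against the 500 probes nearest in brightness, Tfcp2l1 lay above 99.8%, Tcl1 above 99.4%, Klf4 above 98.0% and Esrrb above 97.8%. Klf5, Nr5a2 and Nr0b1 lay above 96.4%, 96.0% and 95.4%, and Klf2 above 32.0%. The medians of those neighbouring probes ranged from -0.074 to 0.074.

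**Figure D3:**
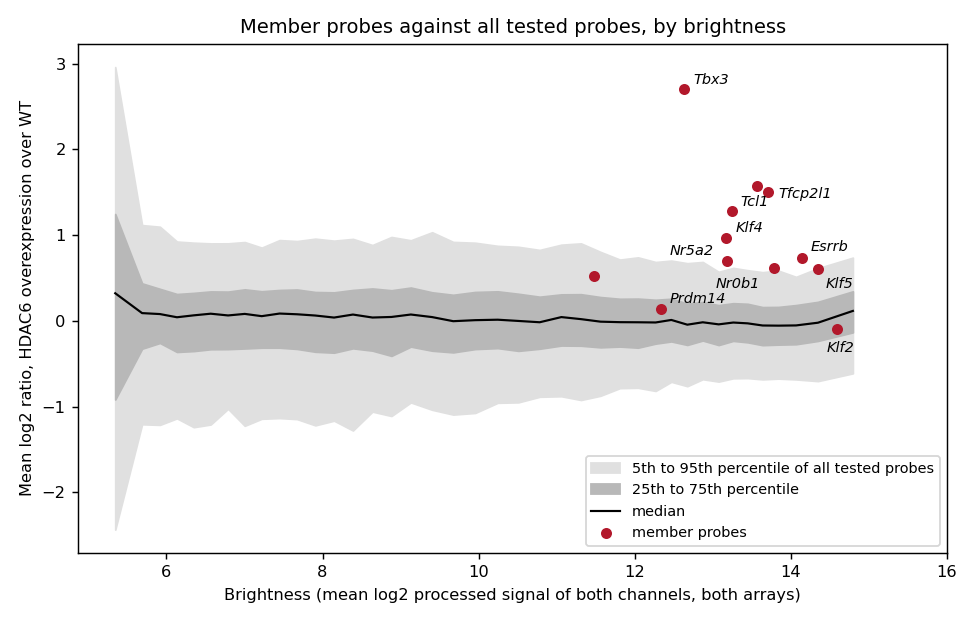
Mean log2 ratio (OE over WT) of all 12 member probes against brightness (mean log2 processed signal of both channels over both arrays), with the median and percentile bands of all tested probes. The brightest probes of the members lie between the 72nd and 97.8th brightness percentile. The dimmer Nr5a2 probe lies below that range, at a brightness of 11.48. Tbx3 stands far above the upper band at 2.70.

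**Figure D4:**
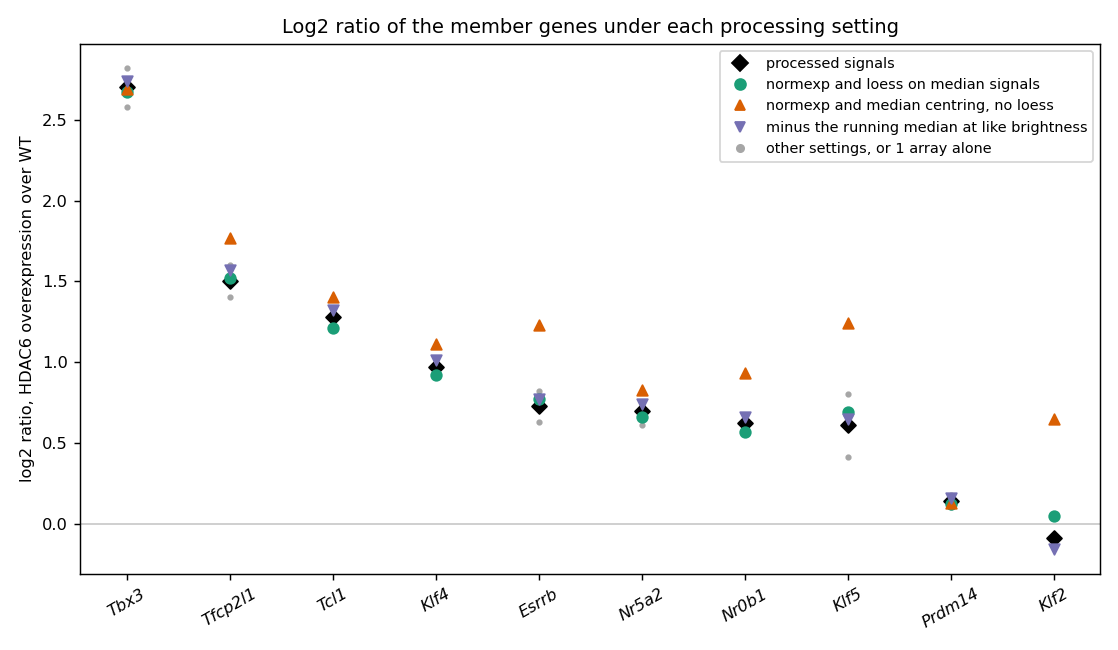
log2 ratio (OE over WT) of each member's brightest probe under each processing setting and on each array alone. Tbx3 stays between 2.58 and 2.82, and median centring without loess lifts Klf2 to 0.65.

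The genes that flank the members on the chromosome in RefSeq order had a median log2 ratio of 0.12 over 20 neighbours, with a range of -1.82 to 2.23. Those at least 2-fold apart by mean were Tbx5, beside Tbx3, Gli2, beside Tfcp2l1, and Tcl1b4 on the higher side, and Actl7b, beside Klf4, and Mageb4, beside Nr0b1, on the lower. These were singled out by their values. Chromosome 1, which carries Tfcp2l1, Nr5a2 and Prdm14, had a median of 0.25 over 909 genes, and chromosome 8, with Klf2, had -0.25 over 851. Tbx3 lies on chromosome 5, Klf4 on 4, Klf5 on 14, Esrrb and Tcl1 on 12 and Nr0b1 on X, whose medians lay between -0.10 and -0.0073. Prdm14 lay below the median of its chromosome and Klf2 above that of its own. The part of these shifts in the members' values was not tested.

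Lists of ESC genes, inputs and partners were read beside the members, with the brightest probe of each gene. Of all named genes, 19.4% were called higher and 27.7% lower by brightest probe. Under median centring, 11129 of 38393 tested probes were called higher and 10127 lower. Whether the lists, here and below, depart from these shares was not tested. Some lists share genes, among them Zfp42, Nanog, Lef1, Dnmt3a, Dnmt3b and Eomes, and a shared gene is counted in each. Genes given beyond the 2 most changed of a list were chosen after their values were seen. Of 10 ESC identity genes, all well above background in both channels, 2 were called higher and 4 lower, with a median log2 ratio of -0.051. Under median centring the count was 6 higher and 2 lower at a median of 0.55, against 1.17 for the members in that setting. Tdgf1, a Nodal coreceptor, was at -1.11 (adjusted p 9.6e-04 in limma), or -0.15 under median centring, and Dppa5a, an RNA-binding protein of ESCs, was at -0.53. Zfp42 at -0.50 and Dppa4 at -0.34, turning to 0.017 under median centring, were also called lower, and Utf1 at 0.34 and Lin28a at 0.36 higher. Without the filter on dim probes 0 of the 10 were called higher and 3 lower in limma. Pou5f1, Sox2, Nanog and Sall4 were not called.

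Of 17 other naive genes measured, 1 was called higher, Tet2 at 0.51 by 1 probe and -0.031 by its other, and 6 lower, with a median of -0.29. Pramel7, a naive-state factor, was at -1.41, and Pramel6 was at least 1.94-fold lower on the processed signals, with OE not well above background. The smallest change of Pramel6 over the settings was a log2 ratio of -0.56. Under median centring 4 were called higher and 5 lower.

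Of 11 LIF and STAT3 genes, 3 were called higher and 1 lower, with a median of -0.032. Lif, the cytokine, stood at 0.76, Pim1, a STAT3-induced kinase, at 0.74 and Pim3 at 0.51. Socs3, a feedback inhibitor of the pathway, stood at -0.49 but was called higher at 0.29 under median centring, when 5 genes were called higher in all. Under loess 3 of the list were called higher and 3 lower. Of 9 Wnt and GSK3 genes, 0 were called higher and 5 lower in limma, with a median of -0.32. Lef1 at -1.38 and Tcf7 at -1.19 are DNA-binding partners of beta-catenin, and Axin2, a Wnt target, stood at -1.09, with its other probe at -0.43. Gsk3a at -0.42 and Axin1 at -0.32 were the others. Tcf7l1, the repressor of Esrrb, was not called at 0.19. Under median centring 2 of the list were called higher and 5 lower, and without the filter 0 were called higher and 4 lower.

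In the FGF and ERK list 4 of 14 were called higher and 2 lower, with a median of -0.10. Spry4 at 1.54 and Spry2 at 0.74 are feedback inhibitors, and Fgfr2 stood at 0.34 and Etv4 at 0.47. Etv5, an ETS factor, stood at -0.75, and Fgfr1 at -0.45, turning to 0.023 under median centring, while its other 2 probes gave 0.021 and 0.45. Under median centring 5 of the list were called higher and 1 lower, at a median of 0.16, and without the filter 2 were called higher and 2 lower. Of 9 PRDM14 partners and targets 1 was called higher and 4 lower, with a median of -0.26. Dnmt3l, a methyltransferase cofactor, stood at 1.03, and Suz12, a Polycomb subunit, at -1.05. Cbfa2t3 at -0.94, Dnmt3a at -0.67 and Dnmt3b at -0.53 were the other genes called lower, with Dnmt3b at 0.091 under median centring. In that setting 3 of the list were called higher and 3 lower, and the median turned to 0.036.

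Markers of fibroblasts, primitive endoderm and trophectoderm, cells that the cultures could hold, were mostly called higher, as the members were. Formative and primed markers and 2-cell-like markers, given below, were not mostly called higher. Of 18 fibroblast markers 17 were called higher and 0 lower, with a median log2 ratio of 1.05. Their summed signal was 294743 and 376166 in OE, against 157216 and 145722 in WT, and all 18 were well above background in both channels. Col1a2, a fibrillar collagen, stood at 1.71 and S100a4 at 1.68. Of 18 primitive endoderm markers 17 were called higher and 1 lower, with a median of 3.21. Their summed signal was 186798 and 192801 in OE, against 24985 and 28426 in WT. Cubn, an endocytic receptor, stood at 5.51, and at 6.93 by its other probe. Ttr, a carrier protein, was at least 31.2-fold higher on the processed signals, with WT not well above background. The lowest log2 ratio of Ttr over the settings was 4.17. Afp was the marker called lower, at -0.65. Trophectoderm markers were called higher for 8 of 11 and lower for 0, with a median of 0.63 and sums of 79504 and 86882 in OE, against 58895 and 60994 in WT. Tead4 stood at 1.28 and Krt7 at 1.23. Some members, Tbx3 and Nr5a2 among them, are also known from extraembryonic endoderm. The part of these cells in the members' values was not tested.

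**Figure D5:**
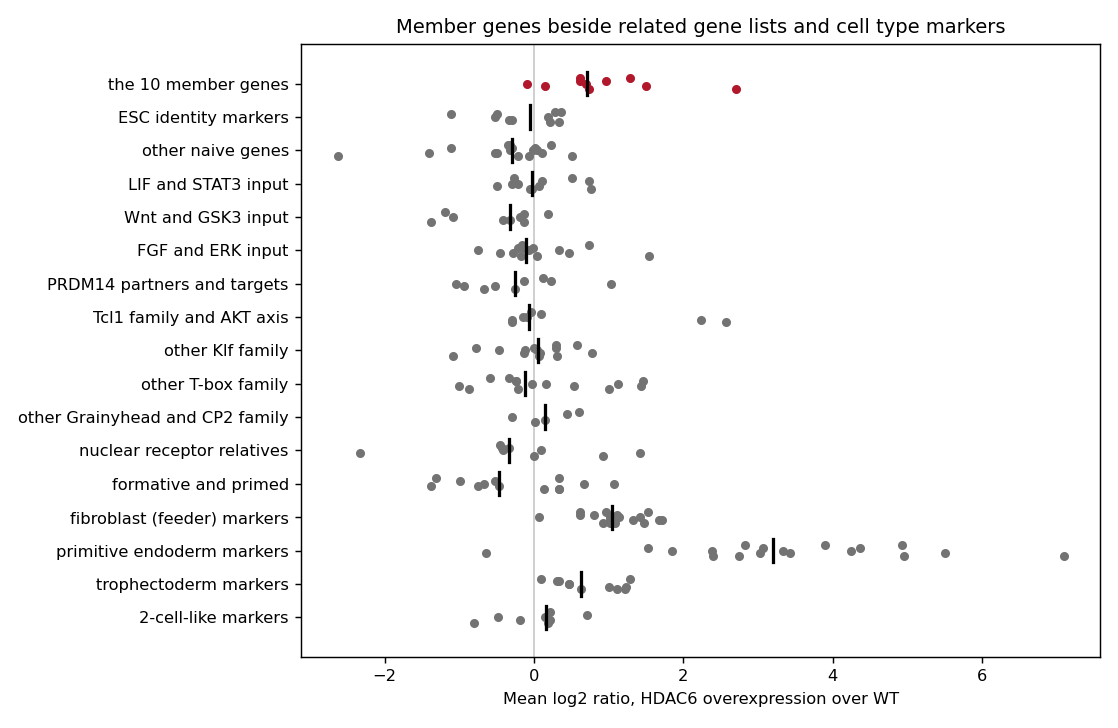
Mean log2 ratio (OE over WT) of the brightest probe of each measured gene, by list, with the list median as a bar and the 10 members at the top. The members' median of 0.72 lies below those of the fibroblast markers at 1.05 and the primitive endoderm markers at 3.21, and above those of the other lists.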

How the data were processed

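Both 2-channel arrays, on 1 slide, were read from the authors' deposited scanner files, made with Agilent Feature Extraction 11.5.1.1, per the file headers. The processed-signal intensity is background-subtracted and dye-normalized by that software, per the file headers, and the deposited log10 ratio and p-value columns come from the same files. The deposited series table holds log2 ratios of WT over OE (r and slope of -1 with these, column medians of -0.0074 and 0.062), so its scale and direction are known and its sign was turned. The flags that the authors' software set (outlier, well above background) are deposited as other values. Spots of 1 probe were averaged without outliers, and probes well above background in 1 same channel on both arrays were kept, 38393 in all. limma 3.58.1 (R 4.3.3) fitted the mean of 2 log2 ratios, two-sided, with Benjamini-Hochberg adjustment over all probes and 1 residual and 4.75 prior degrees of freedom. Alternatives were normexp (offset 50) with loess or median centring, a running median, other filters, limma's treat, 1 probe per gene and each array alone. The code was tested on simulated data. Accessions named 26762 of 55681 probes with a single gene and 28919 with none. By rule, all members, Hdac6 and the 2 most changed called genes of each list were named; other genes were named after their values were seen. The members and lists were chosen with earlier results of these data known. The number of arrays limits the precision. Some genes of the lists are counted but not reported by name here.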

Additional observations from a re-analysis of the deposited data

How the results depend on the processing

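The count of members called higher was 8 under normexp with loess, subtraction of the running median, no filter, the strict filter, outlier spots kept and 1 probe per gene; it was 9 with median centring and 3 when limma tested against 1.5-fold. Of 84 tested alternatives over the member probes, 76 kept their direction and side of the threshold; 6 lost the call, all against 1.5-fold, and 2 reversed. The other 38 (each array alone, the deposited table, means over probes) had no test and kept their direction, with the mean over the Nr5a2 probes at 0.61. Klf2, the brightest member, reversed to 0.046 with loess and 0.65 with median centring. Median centring also raised the next brightest, Klf5 from 0.61 to 1.24 and Esrrb from 0.73 to 1.23. The dimmest members hardly changed, with Prdm14 going from 0.14 to 0.13 and Tbx3 from 2.70 to 2.69. The shift in that setting was thus larger at bright members. The cause was not tested. At 2-fold on both arrays the higher and lower counts over all probes were 479 and 754 with loess, 673 higher with the strict filter and 853 lower with median centring. Against 1.5-fold, 1241 were called higher and 1586 lower, and with 1 probe per gene, 3410 and 4806, since fewer probes were tested. With replicate 1 alone, 1347 probes were at least 2-fold higher and 1693 lower, and with replicate 2 alone, 1860 and 2159. No paired analysis was possible because the arrays form 1 group of ratios. The 95% intervals rest on 1 residual and 4.75 prior degrees of freedom. With 2 arrays of 1 dye orientation, neither dye nor culture can be separated from the overexpression.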

Other observations

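Relatives of the members by gene family moved in both directions, as named genes did in general. By brightest probe, 19.4% of all named genes were called higher and 27.7% lower. Whether the families depart from these shares was not tested. Of 14 other Klf genes, 3 were called higher and 3 lower, with Klf14 at -1.08 and Klf17 at -0.78, or -1.34 by its other probe, on the log2 scale (OE over WT). Under loess, median centring or the strict filter 5 were called higher and 3 lower. Of 14 other T-box genes measured, 5 were called higher and 4 lower, or 7 lower under median centring. Tbx15, a mesenchymal factor, had 1795 and 3035 in OE, against 748.2 and 1004 in WT. Tbx5 was at least 2.68-fold higher on the processed signals, with WT not well above background. The lowest log2 ratio of Tbx5 over the settings was 0.67. In the Grainyhead and CP2 family of Tfcp2l1, Grhl3 stood at 0.60 and Grhl2 at 0.44, but a second Grhl2 probe gave -0.34, and 1 of the family was called lower under loess and under median centring. Of 9 nuclear receptor relatives 2 were called higher and 5 lower. Esrrg, the paralogue of Esrrb, was at least 4.32-fold lower on the processed signals. It had 36.22 and 36.11 in OE, not well above background, against 177.9 and 186.5 in WT. The smallest change of Esrrg over the settings was a log2 ratio of -1.44. Nr2f2 stood at 1.42.

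Formative and primed markers numbered 13, with 3 called higher, 7 lower and a median log2 ratio of -0.47, or 0.091 under median centring. Zic2, a zinc finger factor, had 4397 and 4836 in OE, against 10195 and 13078 in WT. Lef1 stood at -1.38. Fgf5, a primed-state ligand singled out by its value, stood at 1.07. Of 8 measured 2-cell-like markers 1 was called higher, Zfp352 at 0.71, and 2 lower, Usp17lb at -0.81 and Tcstv3 at -0.48.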
